A study of Homo sapiens with 4 samples.

Results

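IGF binding proteins and IGF receptors were followed in embryoid bodies, the floating aggregates in which human embryonic stem cells start to differentiate. The set held 9 genes of the 18640 measured, namely IGFBP1, IGFBP2, IGFBP3, IGFBP4, IGFBP5, IGFBP6, IGFBP7, IGF1R and IGF2R. They were chosen by family membership, with the values of all 4 arrays already known, including the difference between replicate numbers and TBBD minus DMSO within each number. The values of both contrasts are therefore given as a description, and no test of the members is read from them. All 9 genes were measured, on 118 probesets (small groups of probes within an exon) that carried the member's symbol alone, and none needed an older symbol or was lost to a filter.

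The cells were of the established line BG01V, human embryonic stem cells whose karyotype is abnormal. The DMSO group received the vehicle, and the TBBD group received TBBD at 10 µM. Exposure lasted 48 h and fell, as a rule, from day 2 to day 4 after the bodies were set up. TBBD (ellagic acid) blocks a histone methylation mark, H3R17, per the series title, and the series asked how expression responds to it. Each group had 2 arrays, numbered 1 and 2 in the labels, which do not say whether a number marks a separate culture, and in which every embryoid body came from the same line.

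The IGF system is an extracellular growth signal. The ligands IGF1 and IGF2 activate IGF1R, a receptor tyrosine kinase that promotes growth and survival, whereas IGF2R, also known as the cation-independent mannose 6-phosphate receptor, takes up IGF2 for degradation and sorts lysosomal enzymes. The secreted binding proteins IGFBP1 to IGFBP6 hold IGFs with high affinity and can withhold or deliver them, and IGFBP7 binds them weakly. Human embryonic stem cells respond to insulin and IGF signals in culture.

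Markers of undifferentiated cells differed in their signal. LIN28A, a marker of undifferentiated cells, read between 9.08 and 10.0 (log2 signal) on the 4 arrays, and POU5F1, the OCT4 gene, between 6.60 and 7.75, while PRDM14 and GDF3 of the same list lay between 5.63 and 6.33. AFP, a gene of visceral endoderm and fetal liver, read 5.50 on DMSO 1, 5.85 on TBBD 1, 7.98 on DMSO 2 and 8.22 on TBBD 2. ALB, the albumin gene of mature liver, lay between 5.45 and 5.64, near the median of 5.40 of 348 olfactory receptor genes, which served as genes not expected to be expressed. Array medians lay between 6.38 and 6.42. The 4 arrays fell apart mainly by replicate number, since the SD across all genes of the difference between numbers was 0.31 in DMSO and 0.33 in TBBD. The corresponding SD of the treatment difference was 0.21 in number 1 and 0.19 in number 2.

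Within the family, IGFBP5 and IGFBP3 were several-fold higher on both replicate 2 arrays, IGFBP2 and IGFBP7 were higher by less, and IGFBP6, IGF1R and IGF2R were lower. The lower values of IGFBP6 rested mainly on 1 probeset. IGFBP1 and IGFBP4 differed little between the numbers. The mean log2 difference, replicate 2 minus replicate 1 averaged over DMSO and TBBD, ran from -0.44 for IGFBP6 to 2.61 for IGFBP5. Both replicate 2 arrays lay above both replicate 1 arrays for 4 members, where 25.1% of all genes did so, and below for 3 members, where 25.9% did. A difference of at least 1 log2 unit, or 2-fold, within DMSO and again within TBBD was found for 2 members upward (0.553% of all genes) and for 0 members downward (0.150% of all genes). These differences were among the values known when the family was chosen, so nothing is read from the counts. Both groups contain 1 array of each number, and what else differed between the numbers is not given in the labels.

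**Figure D1:**
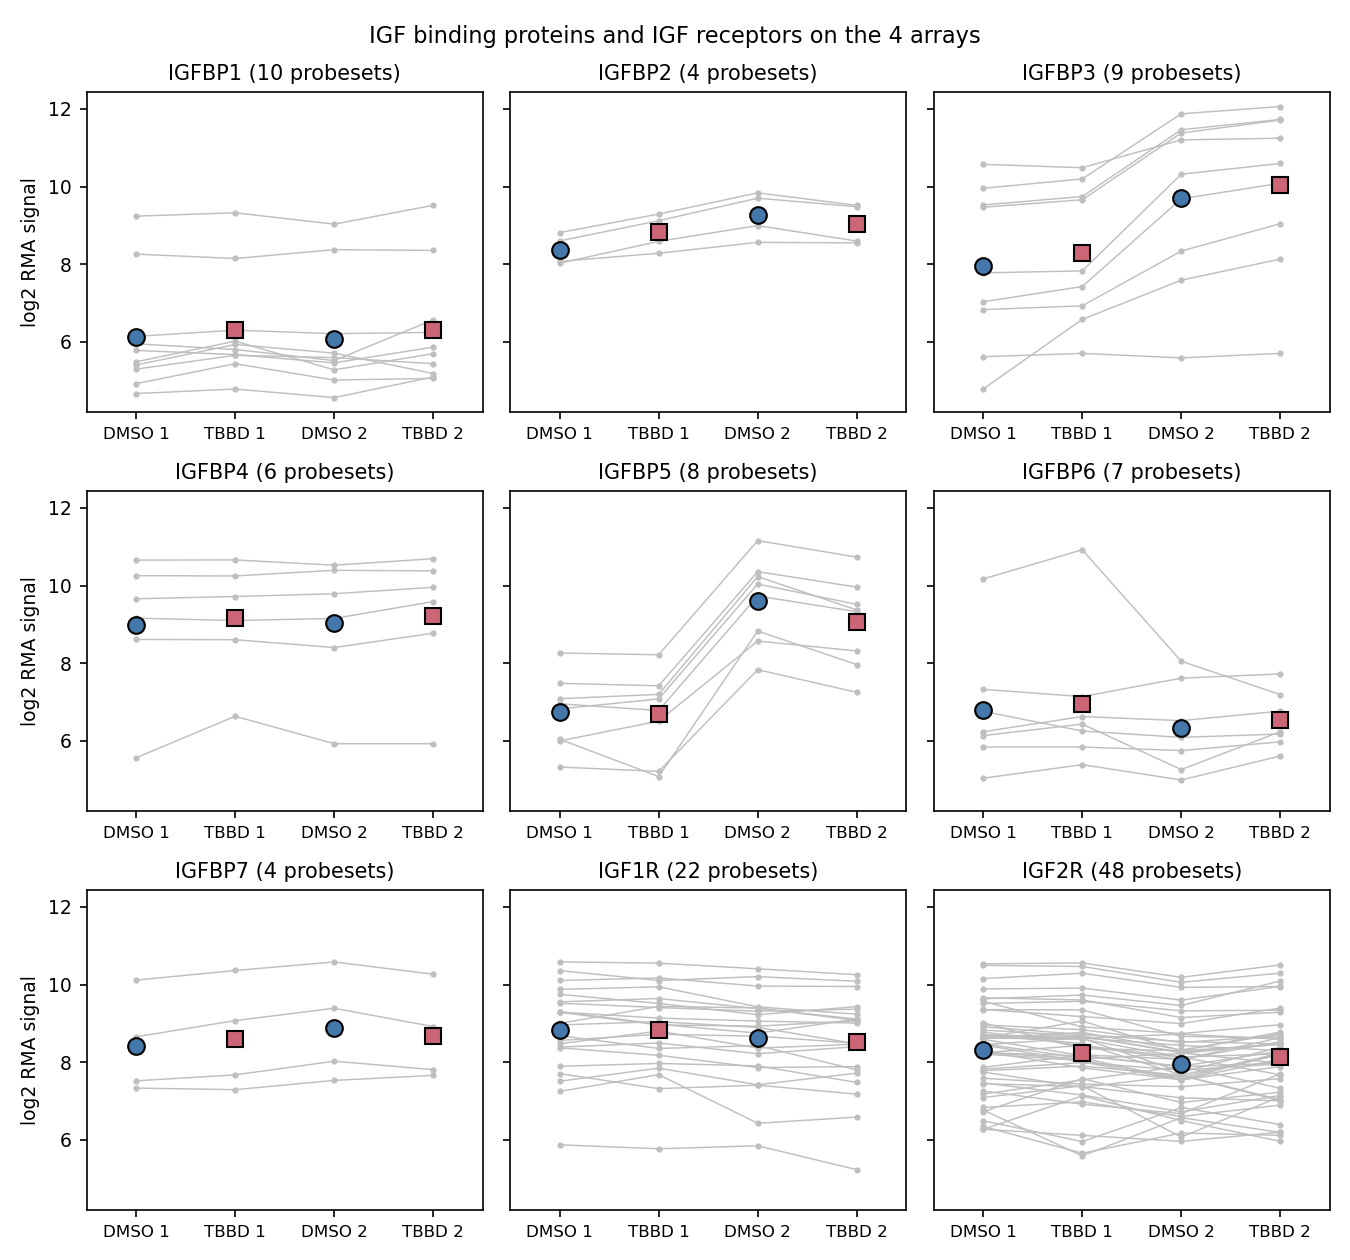
Each panel shows 1 gene, with the log2 RMA signal on the vertical axis and the 4 arrays on the horizontal axis. Large symbols are the gene mean (circles DMSO, squares TBBD) and grey lines are its probesets. IGFBP5 and IGFBP3 sit at 6.69 to 8.28 on the replicate 1 arrays and at 9.06 to 10.03 on the replicate 2 arrays, while IGFBP4 stays between 8.98 and 9.22.

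IGFBP5, a binding protein found in extracellular matrix and bone, read a log2 signal of 6.75 on DMSO 1, 6.69 on TBBD 1, 9.59 on DMSO 2 and 9.06 on TBBD 2 (mean of 8 probesets). Both replicate 2 arrays lay far above both replicate 1 arrays, whichever treatment they had received. The difference was 2.85 within DMSO, or 7.20-fold, and 2.37 within TBBD, or 5.16-fold. All 8 probesets were at least 2-fold higher in both comparisons, and their mean differences spread over a narrow range, from 2.19 to 2.84. Only 3 of the 18640 genes had a larger mean difference in this direction.

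IGFBP3, the main carrier of IGFs in blood, read 7.95 on DMSO 1, 8.28 on TBBD 1, 9.72 on DMSO 2 and 10.03 on TBBD 2 (log2 signal, mean of 9 probesets). Again the replicate numbers did not overlap. The difference was 1.76 within DMSO, or 3.40-fold, and 1.75 within TBBD, or 3.36-fold, and the gene ranked 31 of 18640 by its mean difference. The probesets differed more than for IGFBP5, with mean differences from -0.015 to 2.66. One probeset was flat, at 5.62 on DMSO 1, 5.70 on TBBD 1, 5.59 on DMSO 2 and 5.70 on TBBD 2, and 7 of the 9 were at least 2-fold higher within both treatments. With the median probeset signal taken on each array as the gene value, the IGFBP3 difference was 2.65 rather than 1.76. The median of the 9 probeset differences themselves was 1.96.

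The promoters of these 2 genes are shown because both genes stood higher on the same arrays, together with that of IGFBP4, which did not. They are the 250 bases before each gene's annotated start in RefSeq (build GRCh38.p14), read on the gene's strand from 5′ to 3′: IGFBP3 at chr7:45921273-45921522 on the minus strand, IGFBP5 at chr2:216695550-216695799 on the minus strand and IGFBP4 at chr17:40443200-40443449 on the plus strand. Capitals mark matches on either strand to the TATA box spellings TATANA and TATTTAA, and to the GC box GGGCGG.
IGFBP3: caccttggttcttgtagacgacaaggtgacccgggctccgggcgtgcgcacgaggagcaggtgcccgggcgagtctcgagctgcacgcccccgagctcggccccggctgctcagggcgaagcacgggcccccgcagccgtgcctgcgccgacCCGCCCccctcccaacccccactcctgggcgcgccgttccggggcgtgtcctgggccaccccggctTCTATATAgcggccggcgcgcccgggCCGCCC
IGFBP5: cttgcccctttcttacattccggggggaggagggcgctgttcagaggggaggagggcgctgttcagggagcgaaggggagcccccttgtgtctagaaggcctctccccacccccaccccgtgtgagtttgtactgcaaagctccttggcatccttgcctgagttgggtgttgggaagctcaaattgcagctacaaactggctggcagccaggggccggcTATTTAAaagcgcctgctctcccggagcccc
IGFBP4: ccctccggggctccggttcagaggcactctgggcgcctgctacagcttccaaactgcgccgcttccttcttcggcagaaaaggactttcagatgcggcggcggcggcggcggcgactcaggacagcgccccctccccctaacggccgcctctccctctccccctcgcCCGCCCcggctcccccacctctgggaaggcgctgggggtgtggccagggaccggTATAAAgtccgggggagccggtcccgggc

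A TATA-type match lay close to the gene start in all 3 promoters. It began 30 bases before the start in IGFBP3, where a second, overlapping match began at 32, 31 bases before it in IGFBP5 and 29 bases before it in IGFBP4. Of the 9 windows of the 7 members with a promoter entry, TATANA was found in 2 and TATTTAA in 1, which are the 3 shown. TATANA, searched on both strands, was present in 17.7% of 34943 promoter windows of the same length and TATTTAA in 4.18%. These shares count a match anywhere in the window, so they are no reference for a match close to the start. The second spelling was added after the IGFBP5 sequence was seen. The promoters otherwise differed. IGFBP3 had a GC content of 76.0% with 32 CpG dinucleotides and 2 GC boxes, IGFBP5 61.2% with 8 CpG dinucleotides and 0 GC boxes, and IGFBP4 71.6% with 24 CpG dinucleotides and 1 GC box. The median window held 58.0% GC and 11 CpG dinucleotides, and 42.5% of windows held a GC box. Of the 9 members, 7 had a promoter entry, and IGFBP1 and IGFBP7 did not. The IGF2R promoter held 3 copies of the E-box CACGTG, present in 6.32% of windows, and in the other 6 members with an entry 0 copies were found. These are matches of letters and not mapped binding sites.

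IGFBP2, a binding protein abundant in fetal tissues, read 8.38 on DMSO 1, 8.82 on TBBD 1, 9.28 on DMSO 2 and 9.04 on TBBD 2 (log2 signal, 4 probesets). The replicate 2 arrays were the higher ones, and the DMSO arrays stood further apart than the TBBD arrays. The difference was 0.90 within DMSO and 0.21 within TBBD, and all 4 probesets were higher on replicate 2 in both. IGFBP7, which is deposited in vascular basement membranes, read 8.41 on DMSO 1, 8.60 on TBBD 1, 8.88 on DMSO 2 and 8.66 on TBBD 2. Its difference was 0.48 within DMSO and 0.063 within TBBD, and of its 4 probesets 2 were higher on replicate 2 in both treatments. From the lowest to the highest, the arrays stood in the order DMSO 1, TBBD 1, TBBD 2, DMSO 2 for both IGFBP2 and IGFBP7, an order that 5.24% of all genes had.

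IGFBP6, which prefers IGF2 over IGF1, had gene values of 6.79 on DMSO 1, 6.94 on TBBD 1, 6.33 on DMSO 2 and 6.53 on TBBD 2 (log2 signal, 7 probesets). The lower values on replicate 2 rested mainly on 1 probeset, singled out after its values were seen. That probeset read 10.17 on DMSO 1, 10.92 on TBBD 1, 8.05 on DMSO 2 and 7.19 on TBBD 2, whereas the other 6 stayed between 4.99 and 7.72 on every array. Without it the mean difference was -0.025 in place of -0.44, and the 2 treatments took opposite directions, at -0.18 within DMSO and 0.13 within TBBD. Of the 7 probesets, 4 were higher and 3 lower on replicate 2.

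IGFBP1, which is made by liver and decidua and is repressed by insulin, read 6.12 on DMSO 1, 6.31 on TBBD 1, 6.08 on DMSO 2 and 6.30 on TBBD 2 (log2 signal, 10 probesets). Its values did not follow the replicate number, with a mean difference of -0.022. On average over the arrays its probesets spanned 4.78 to 9.28. IGFBP4, a binding protein that mostly inhibits IGF action, read 8.98 on DMSO 1, 9.16 on TBBD 1, 9.03 on DMSO 2 and 9.22 on TBBD 2 (6 probesets), and differed between the numbers by a mean of 0.052. By their gene values the arrays grouped by treatment instead for both genes, but for IGFBP4 only through 1 dim probeset, as described further on.

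Both receptors were lower on the replicate 2 arrays by a modest amount that most probesets shared. IGF1R read 8.83 on DMSO 1, 8.82 on TBBD 1, 8.61 on DMSO 2 and 8.52 on TBBD 2 (log2 signal, 22 probesets). The difference was -0.22 within DMSO and -0.30 within TBBD, and 17 probesets were lower in both treatments while 0 were higher in both. IGF2R read 8.32 on DMSO 1, 8.23 on TBBD 1, 7.97 on DMSO 2 and 8.14 on TBBD 2 (48 probesets). Its difference was -0.36 within DMSO and -0.096 within TBBD, with 25 probesets lower in both and 2 higher in both. IGF2R was the 1 member whose arrays ran from highest to lowest as DMSO 1, TBBD 1, TBBD 2, DMSO 2, the reverse of the order of IGFBP2 and IGFBP7, and 6.39% of all genes had that reverse order.

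**Figure D2:**
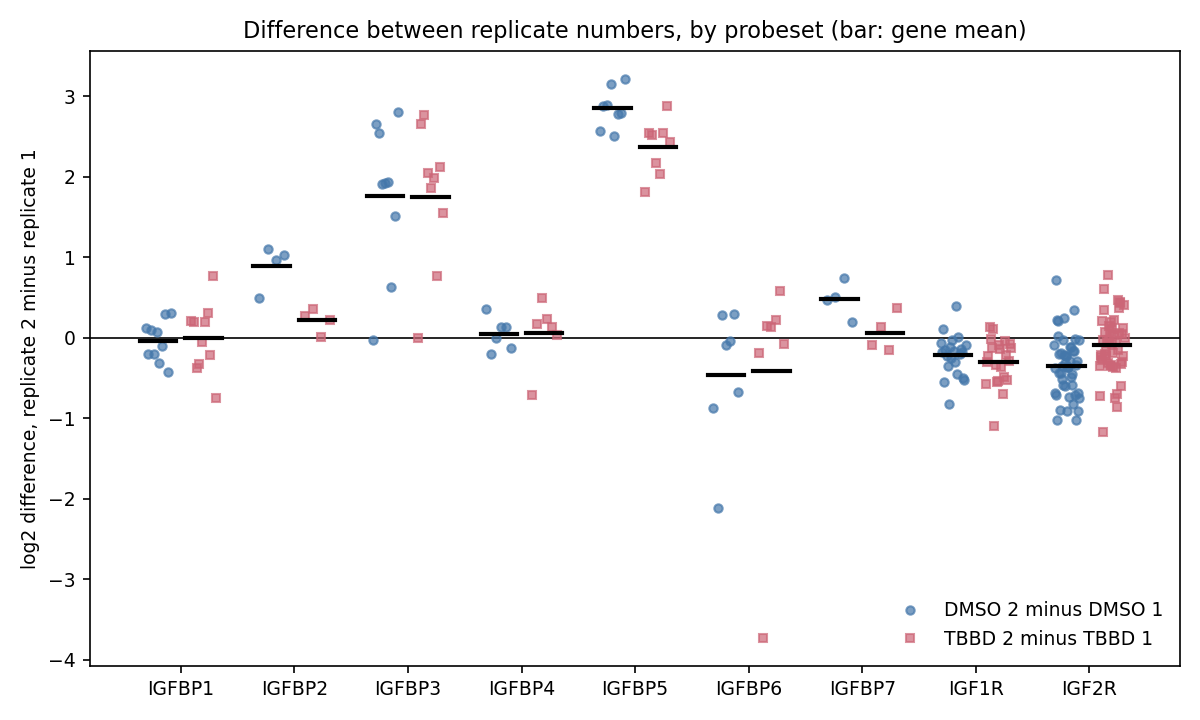
The vertical axis is the log2 difference, replicate 2 minus replicate 1, of each probeset, with circles for DMSO, squares for TBBD and a bar for the gene mean. All 8 IGFBP5 probesets lie between 1.80 and 3.22, most IGF1R and IGF2R probesets lie below 0, and 1 IGFBP6 probeset stands apart at -2.12 and -3.73.

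Members that neighbour each other in the genome differed in the size of the difference. In RefSeq, IGFBP2 and IGFBP5 are adjacent protein-coding genes on chromosome 2, and IGFBP1 and IGFBP3 are adjacent on chromosome 7. The mean difference between replicate numbers was 0.56 for IGFBP2 beside 2.61 for IGFBP5, both without overlap, and -0.022 for IGFBP1 beside 1.76 for IGFBP3. On the other side of IGFBP3 the adhesion gene TNS3 differed by 0.54, and on the other side of IGFBP5 the sperm chromatin gene TNP1 differed by -0.075. POLR2B, which encodes an RNA polymerase subunit and neighbours IGFBP7, differed by -0.26. The only further probeset annotated to a member is shared between IGFBP7 and POLR2B and was left out of the gene values.

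Genes whose 4 values ran most like those of IGFBP3 and IGFBP5 were found by the Euclidean distance between log2 profiles, each centred on its own mean over the 4 arrays, among genes with at least 3 probesets. For IGFBP3 the nearest were the gelatinase gene MMP9 at a distance of 0.11 log2 units, the collagen VI gene COL6A3 at 0.11 and the collagen I gene COL1A1 at 0.15. COL6A3 read 8.15 on DMSO 1, 8.55 on TBBD 1, 9.99 on DMSO 2 and 10.17 on TBBD 2. For IGFBP5 the nearest genes were farther away. They were the retinoic acid binding protein gene CRABP1 at 0.60, the secreted Wnt antagonist gene FRZB at 0.62 and the neurotrophin receptor gene NTRK2 at 0.64, and IGFBP3 itself stood at 1.08 from IGFBP5. The likeness rests on 4 arrays in each case and says nothing of shared function.

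Markers of several cell types also differed between the replicate numbers. All 14 mesenchyme markers were higher on replicate 2 by their mean difference, with a median of 1.15 against -0.0024 over all genes, and 13 did not overlap between the numbers, where 25.1% of all genes were higher without overlap. Their summed linear signal was 4720 on DMSO 1 and 5400 on TBBD 1, against 13029 on DMSO 2 and 14466 on TBBD 2. Of 14 hepatic and visceral endoderm markers 13 were higher, with a median of 1.18 and a summed signal of 650 and 717 against 1637 and 2039 in the same order of arrays. Endothelial markers were higher in 10 of 10 cases, at a median of 0.73, with summed signals of 1031 and 971 against 1679 and 2182. Of 11 markers of undifferentiated cells 9 were lower, at a median of -0.20, with summed signals of 2648 and 2469 against 2071 and 1648. Of 9 neural progenitor markers 6 were higher, at a median of 0.14, and of 9 trophoblast markers 7 were lower, at a median of -0.51. By the mean difference 9205 of all 18640 genes were higher and 9432 lower. Without overlap, 11 hepatic and 9 endothelial markers were higher and 0 of either list lower. The counts higher and lower without overlap were 1 and 5 for undifferentiated cell markers, 3 and 3 for neural and 2 and 6 for trophoblast markers. Against the direction of their lists, the undifferentiated cell marker SOX2 was 1.29 higher and the trophoblast marker CGA 2.55 higher. Both were at least 2-fold higher within DMSO and within TBBD. No marker was at 0, since every array value is a log2 signal with background. The part of these cell types in the IGFBP3 and IGFBP5 values was not tested. In bulk RNA, fewer cells of a type and less RNA per cell cannot be told apart.

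Other genes of the IGF system, 48 in lists of the same pathway, had 45 measured members. Between replicate numbers they were balanced as a whole, with 21 higher and 24 lower and a median of -0.015. Both replicate 2 arrays lay above both replicate 1 arrays for 13 and below for 12, near the 25.1% and 25.9% of all genes. One list held the IGFBP proteases, their inhibitors and the IGF complex subunit gene IGFALS. Of its 7 genes 5 were higher without overlap, where 25.1% of all genes were, at a list median of 0.85. The inhibitor gene STC1 was among the 5. PAPPA, which cleaves IGFBP4, read 7.75 on DMSO 1, 7.37 on TBBD 1, 8.31 on DMSO 2 and 8.72 on TBBD 2. PAPPA2, which cleaves IGFBP3 and IGFBP5, read 5.85, 5.99, 7.26 and 7.07 in the same order, and was the 1 gene of these lists at least 2-fold higher within both treatments. The IGFBP-degrading protease genes ADAM12 and HTRA1 had mean differences of 1.23 and 0.85. STC1, an inhibitor of PAPPA, differed by 0.62, while the related STC2 differed by -0.36.

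All 3 ligand genes were higher on replicate 2 by their mean difference, as were 9205 of all 18640 genes, while 9432 were lower. The INS arrays overlapped between the numbers, and INS differed by -0.038 within DMSO. IGF2, the fetal ligand, read 10.47 on DMSO 1, 11.25 on TBBD 1, 12.05 on DMSO 2 and 11.98 on TBBD 2. This was the array order of IGFBP2 and IGFBP7 too. The IGF2 value rested on only 2 probesets that carried its symbol alone, and probesets annotated to several symbols were left out. IGF1 read between 5.52 and 5.88 and INS between 5.53 and 5.82, beside the olfactory receptor median of 5.40. Receptor adaptors ran lower, with 6 of 7 below 0 by their mean difference at a median of -0.20, among them GRB2 at -0.25 and IRS2 at -0.33. The insulin receptor gene INSR differed by -0.23 with overlapping arrays. Among kinase-arm genes PIK3R1, a regulatory subunit of PI3K, differed by 1.01 and the catalytic PIK3CB by -0.60, with a list median of 0.0025 over 8 measured genes. IGF2BP1, which binds IGF2 mRNA, differed by -0.29, and the 3 genes of that family were all lower by their mean difference, at a median of -0.07. The arrays of IGF2BP2 and IGF2BP3 overlapped between the numbers, however, and both genes were higher on replicate 2 within DMSO, by 0.11 and 0.057. The other secreted proteins with an IGFBP-type domain had a median of 0.046 over 8 genes, and the mannose 6-phosphate sorting genes one of -0.07 over 7, with M6PR, the smaller receptor of that pathway, at -0.36.

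**Figure D3:**
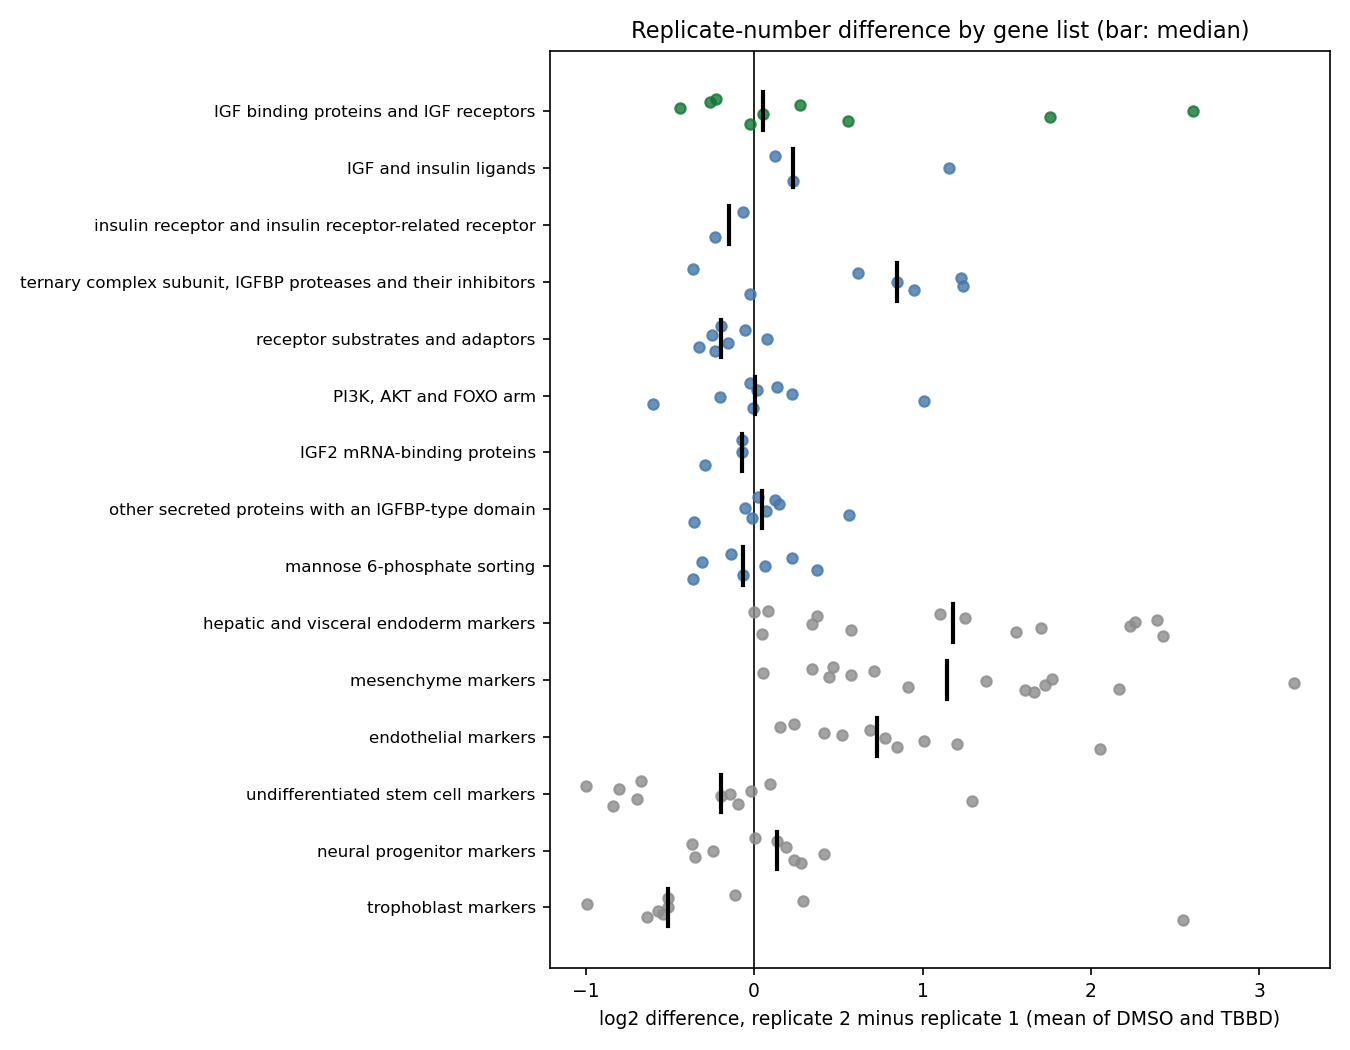
Each point is a gene and each row a gene list, and the horizontal axis is the log2 difference, replicate 2 minus replicate 1, averaged over DMSO and TBBD, with a bar for the list median. The 9 members spread from -0.44 to 2.61, and mesenchyme markers, at a median of 1.15, all lie above 0.

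TBBD minus DMSO was small for every member beside the difference between numbers in IGFBP3 and IGFBP5. The mean log2 differences ran from -0.30 for IGFBP5 to 0.32 for IGFBP3, with 6 members higher and 3 lower and a median of 0.10, against -0.0035 over all genes. The values of IGFBP5 and IGFBP3 lay outside the middle 95% of all genes, -0.26 to 0.25. A difference larger in size was found for 2.85% of all genes in the case of IGFBP5 and 2.11% in that of IGFBP3. By limma's moderated test, fitted to every gene, the adjusted p was 1 for each of the 9, so 0 members passed 0.05, as did 0% of all genes. At an unadjusted p under 0.05 there were also 0 members, against 0.746% of all genes. In a limma fit blocked on the array number, 1 member, IGFBP3, had an unadjusted p of 0.0249 and an interval of 0.055 to 0.59. In that fit 496 of 18640 genes had an unadjusted p under 0.05, and the adjusted p of IGFBP3 was 0.9997. The blocked fit uses the differences within each number, which were known when the family was chosen. Nothing is therefore read from this p or interval. The fit without the block, with group as its only term, keeps the difference between numbers in its spread. There the 95% confidence interval of IGFBP5 ran from -3.32 to 2.72 and that of IGFBP3 from -1.71 to 2.36. The narrowest interval of a member in the fit without the block was that of IGFBP1, from -0.073 to 0.49.

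Within each replicate number, TBBD stood above DMSO in both numbers for 4 members, where 21.5% of all genes did so, and below in both for 2 members, where 23.0% did. IGFBP3 was 0.33 higher with TBBD in number 1 and 0.32 higher in number 2, and 8 of its 9 probesets were higher in both. The first value leaned on 1 probeset, singled out after its values were seen, that read 4.79 on DMSO 1 and 6.58 on TBBD 1, and without it the number 1 difference was 0.15. With the median probeset signal on each array IGFBP3 stood at 0.16 in place of 0.32 for the mean of both numbers. The median of its probeset differences was 0.24. IGFBP5 stood at -0.059 in number 1 and -0.54 in number 2, where all 8 probesets were lower, while in number 1 only 5 were. Its number 1 direction rested on 1 probeset, singled out after its values were seen, at 6.04 on DMSO 1 and 5.08 on TBBD 1. Without that probeset the number 1 difference of IGFBP5 was 0.070. Outside these genes IGF1R was lower in both numbers, by -0.013 and -0.095.

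IGFBP1 and IGFBP4 were the 2 members whose TBBD arrays both lay above both DMSO arrays, where 10.5% of all genes did so, and 0 members had both below, where 10.4% did. The DMSO arrays averaged 6.10 ± 0.028 (SD, n = 2) for IGFBP1, the TBBD arrays averaged 6.31 ± 0.0038 (SD, n = 2), and they differed by 0.19 in number 1 and 0.23 in number 2. Of its 10 probesets 5 were higher in both numbers. For IGFBP4 the DMSO arrays averaged 9.01 ± 0.033 (SD, n = 2), the TBBD arrays averaged 9.19 ± 0.041 (SD, n = 2), with differences of 0.18 and 0.19. Its number 1 value came from 1 dim probeset, singled out after its values were seen, at 5.57 on DMSO 1 and 6.63 on TBBD 1. The other 5 probesets differed by -0.059 to 0.058 in number 1, and without the dim probeset the number 1 difference was -0.0020, so that the groups then overlapped. IGFBP6 was higher in both numbers, by 0.16 and 0.20, while its brightest probeset was 0.75 higher in number 1 and -0.86 in number 2.

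IGFBP2, IGFBP7 and IGF2R took opposite directions in the 2 numbers. IGFBP2 was 0.44 higher with TBBD in number 1, on all 4 probesets, and stood at -0.24 in number 2, also on all 4 probesets. IGFBP7 stood at 0.20 and -0.22, and its shared probeset at 0.43 and -0.24. IGF2R stood at -0.090 in number 1, with 31 of 48 probesets lower, and at 0.17 in number 2, with 34 of 48 higher. With 1 array on each side, whether the 2 numbers differ in their response was not tested.

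**Figure D4:**
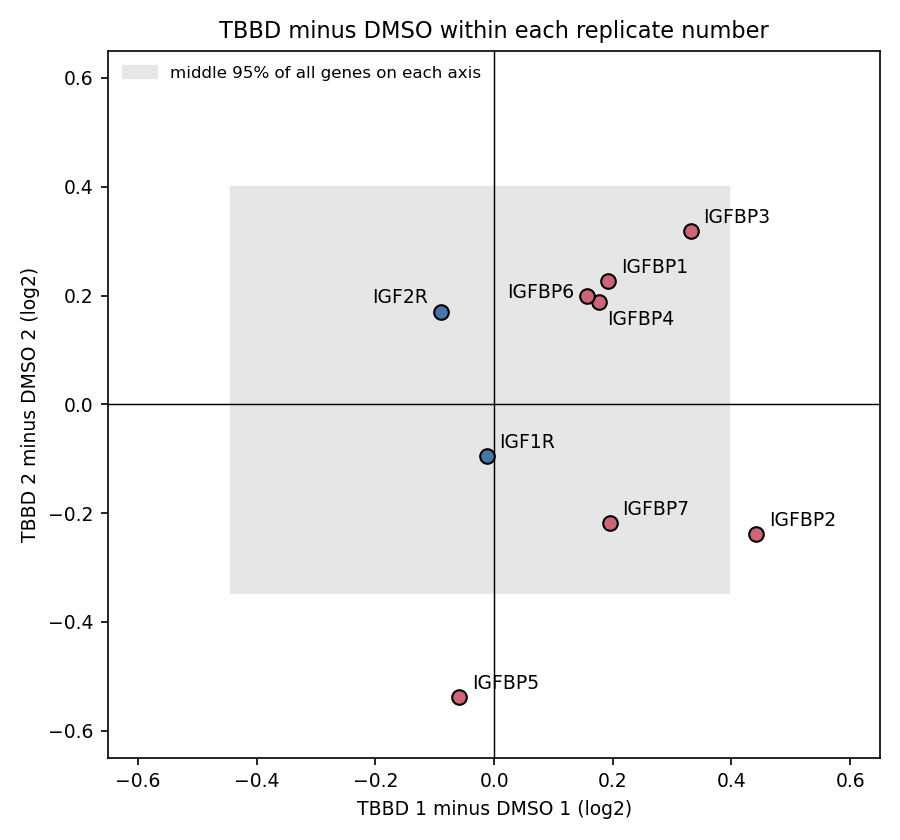
The horizontal axis is TBBD 1 minus DMSO 1 and the vertical axis TBBD 2 minus DMSO 2, both as log2 differences of the gene mean, with red points for binding proteins, blue points for receptors and a grey box for the middle 95% of all genes on each axis. IGFBP3, IGFBP1, IGFBP4 and IGFBP6 lie above 0 on both axes, and IGFBP5, at -0.54, and IGFBP2, at 0.44, lie outside the box.

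Marker genes were compared with TBBD in the same way, and 0 of them passed limma's adjusted threshold. All 11 markers of undifferentiated cells were lower by their mean difference, 7 of them in both numbers, at a median of -0.21, while all 14 hepatic and visceral endoderm markers were higher, 9 of them in both numbers, at a median of 0.19. Of the 14 mesenchyme markers 12 were higher, 9 in both numbers, at a median of 0.14. The summed signals given above for each array run the same way within each number for these 3 lists. The other lists were nearer to balance, with 7 endothelial markers higher and 3 lower (median 0.076), 5 neural markers higher and 4 lower (median 0.05) and 4 trophoblast markers higher and 5 lower (median -0.020). Of all genes, 21.5% were higher and 23.0% lower in both numbers. The 348 olfactory receptor genes also leaned upward with TBBD, with 220 higher and 127 lower by their mean difference (median 0.028). In both numbers 112 of them were higher and 49 lower. Some hepatic differences were small, at 0.11 for ALB, 0.051 for TF and 0.022 for APOC3. The part of the marked cell types in the IGFBP1, IGFBP3 and IGFBP4 values was not tested.

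Among the other genes of the IGF system, 0 of 45 passed limma's adjusted threshold for TBBD against DMSO, and 0 had an unadjusted p under 0.05. By their mean difference 19 were higher and 26 lower with TBBD, at a median of -0.0093. In both numbers 5 of the 45 stood above DMSO and 9 below, where 21.5% and 23.0% of all genes did. Among the 9 were GRB10, an inhibitor of insulin and IGF1 receptor signalling, which stood at -0.29 in number 1 and -0.19 in number 2, and the adaptor GRB2, at -0.13 and -0.22. The matrix-associated CCN2, which carries an IGFBP-type domain, stood at 0.068 and 0.44. IGF2 stood at 0.78 in number 1 and -0.076 in number 2, and PAPPA at -0.38 and 0.41.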

How the data were processed

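Affymetrix Human Gene 1.0 ST arrays were summarised by the authors with RMA, per the submitters' processing notes, which give no version. The deposited table has 1 value per probeset and array, log2 by its range. Of 247312 probesets, 277 with a placeholder cell were left out. Those with 1 symbol in the platform annotation, brought to current RefSeq symbols, were averaged per gene, giving 18640 genes. Signals of different genes are not comparable levels. Members, lists and the naming rule (every member, the pathway lists, and the 3 nearest profiles of members spanning at least 1 log2 unit) were chosen with earlier results of these data known. TBBD was compared with DMSO by limma 3.58.1 in R 4.3.3, with group as the only term and Benjamini-Hochberg adjustment across the 18640 genes (two-sided), and the code was tested on simulated arrays. Replicate numbers came from the titles. Since the labels name no separate cultures, p-values reflect array-to-array spread alone. Summaries used Python 3.11.15 with numpy 2.4.6 and pandas 2.3.3.

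No detection call was used, so which genes lay above background is unknown, and the number of arrays limits the precision. From the lists, 3 pathway genes and 3 markers were not analysed here. Alternatives were the median over probesets, quantile normalization again, median centring, the brightest 9320 genes, an intensity trend, genes on 3 or more probesets, the replicate number as a block and each array left out. The median over probesets was taken on each array before differences were formed. Leaving out each probeset of a member and adding the shared IGFBP7 probeset were chosen after seeing the data.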

Additional observations from a re-analysis of the deposited data

How the results depend on the processing

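Under each alternative run, 0 genes had a limma adjusted p under 0.05, while 139 had an unadjusted p under 0.05 in the fit as reported. That count was 249 with the median over probesets, 23 among the brightest 9320 genes, 90 among genes with at least 3 probesets and 225 with an intensity trend. With the replicate number as a block it was 496, IGFBP3 being the 1 member among them (unadjusted p of 0.0249 in limma), and the adjusted p of each member was 0.9997. The labels do not say that equal numbers pair the arrays, nor what else arrays of the same number share. The deviations of the same-numbered arrays from their group means correlated at 0.566 across genes, and in the blocked fit IGFBP3 had an SE of 0.11 in place of 0.79. Leaving out 1 array gave between 137 genes (without DMSO replicate 1) and 320 (without DMSO replicate 2), with 268 without TBBD replicate 1 and 294 without TBBD replicate 2. The lone array of a group was then assumed to vary like the other group, and the numbers were unequal between the groups, and IGFBP3 then stood between -0.56 and 1.21 and IGFBP5 between -1.72 and 1.12.

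Between replicate numbers, 131 genes differed at least 2-fold in 1 direction within both treatments, 236 within DMSO alone and 312 within TBBD alone. IGFBP3 and IGFBP5 did so under each of these settings. With the median over probesets 4 members kept 1 direction with TBBD in both numbers, in place of 6. IGFBP6 then differed between the numbers by -0.17 in place of -0.44, while the median of its probeset differences was 0.021.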
